A study of Mus musculus with 6 samples.

Results

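The genes of coenzyme Q synthesis and binding were taken from the deposited expression table by symbol, and all 10 symbols sought (*Pdss1*, *Pdss2*, *Coq2*, *Coq3*, *Coq4*, *Coq5*, *Coq6*, *Coq7*, *Coq9* and *Coq10a*) were found among its 22611 genes. The libraries were made from total RNA of duodenal epithelium, 3 from WT mice and 3 from ESRRAKO mice, which carry a germline null allele of *Esrra* (Esrra-/-) and therefore lack the receptor in every tissue and not only in the intestine. According to the study's methods the WT mice were littermates, males and females were used, and all had been on a high-fat diet for several weeks. The age at collection is not given in the sources used here, and the epithelium was released with EDTA. The methods describe collection of the whole epithelium or of crypts and villi apart, and do not state which was used for these libraries. Expression is given as FPKM, a fragment count scaled to transcript length and library size, which allows levels to be set side by side between genes.

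Coenzyme Q (ubiquinone) is the lipid that carries electrons in the inner mitochondrial membrane, from complex I, complex II and several dehydrogenases to complex III. It consists of a benzoquinone ring, which is modified step by step in mitochondria, and a long isoprenoid tail that anchors it in the membrane. ESRRA is a nuclear receptor known for activating genes of mitochondrial energy metabolism, and the comparison asks which of the synthesis genes differ when it is absent from an epithelium that absorbs fat.

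*Coq7*, which encodes the hydroxylase of the penultimate step of ring modification, fell in ESRRAKO to 44.7% of its WT mean. It was the only one of the 10 genes that passed the threshold of the comparison, where 3.28% of all genes tested were lower and 4.63% passed in either direction, so that a count of 1 in 10 is near the background. *Pdss1*, *Coq5* and *Coq6* had smaller differences in the same direction, *Coq4* and *Coq10a* had higher means in ESRRAKO, and *Coq9*, *Coq2*, *Coq3* and *Pdss2* had means at 84.9%, 100.5%, 109% and 107% of those of WT. None of these other 9 genes was called.

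*Esrra* itself had 49.4, 73.5 and 103.6 FPKM in WT replicates 1 to 3 and 10.4, 9.42 and 8.72 FPKM in ESRRAKO replicates 1 to 3. The sum of all FPKM values ranged from 707094 to 999902 per library and was highest in replicate 3 of each genotype. Those were also the libraries without Y-linked transcripts, with summed values of 0.0487 and 0.222 FPKM for *Ddx3y*, *Eif2s3y*, *Kdm5d* and *Uty*, against 27.3 to 46.7 FPKM in the other 4. Markers of villus enterocytes summed to between 36607 and 61134 FPKM in WT and between 46487 and 62530 FPKM in ESRRAKO, markers of mesenchyme were at most 1.79 FPKM in sum, and 4 of 5 pancreatic acinar markers were listed at 0 throughout. Crypt markers summed to 135 to 252 FPKM in WT and 54.3 to 184 FPKM in ESRRAKO. The 3 Paneth cell markers in the table summed to 7008 to 14941 FPKM in WT and 1447 to 6390 FPKM in ESRRAKO. Of these 3, 2 were called lower, *Lyz1* and *Defa24*, where 3.28% of all genes tested were. Of the 8 villus and 5 crypt markers, 0 were called. The part of these cell types in the differences below was not tested, and in bulk tissue fewer cells of a type and less RNA per cell cannot be told apart.

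The sequences before the annotated start are shown for *Coq7*, the gene that fell, for *Pdss1* and *Coq10a*, the members that hold the AAGGTCA core of the motif bound by estrogen-related receptors, and for *Coq4*, which shares a half-site with *Coq7* but had a higher mean in ESRRAKO. Each is the 250 bases upstream of the outermost annotated 5′ end of the gene in mm9 (GENCODE M1), read in the direction of transcription, with AGGTCA and its extension AAGGTCA in capitals in the orientation in which they occur.
*Coq7*: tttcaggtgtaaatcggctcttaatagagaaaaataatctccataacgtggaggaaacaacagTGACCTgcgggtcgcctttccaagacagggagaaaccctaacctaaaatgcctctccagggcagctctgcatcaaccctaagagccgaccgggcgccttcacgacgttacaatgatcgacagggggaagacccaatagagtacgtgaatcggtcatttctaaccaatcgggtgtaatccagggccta
*Pdss1*: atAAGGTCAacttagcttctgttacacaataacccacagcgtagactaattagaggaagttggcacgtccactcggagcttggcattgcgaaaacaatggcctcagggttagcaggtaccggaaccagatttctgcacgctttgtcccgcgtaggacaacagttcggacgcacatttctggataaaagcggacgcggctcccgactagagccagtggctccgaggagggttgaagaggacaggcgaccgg
*Coq10a*: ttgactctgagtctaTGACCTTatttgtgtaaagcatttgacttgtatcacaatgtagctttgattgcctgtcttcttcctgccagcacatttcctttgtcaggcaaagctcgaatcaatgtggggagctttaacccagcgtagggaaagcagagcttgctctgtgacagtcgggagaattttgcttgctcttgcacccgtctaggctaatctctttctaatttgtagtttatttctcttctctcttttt
*Coq4*: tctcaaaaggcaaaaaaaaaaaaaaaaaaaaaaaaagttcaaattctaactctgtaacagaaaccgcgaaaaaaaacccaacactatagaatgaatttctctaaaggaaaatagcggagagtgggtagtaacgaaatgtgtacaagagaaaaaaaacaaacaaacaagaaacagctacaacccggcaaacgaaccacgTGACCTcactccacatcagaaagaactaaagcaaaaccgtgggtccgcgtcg

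The window of *Coq7* is chr7:125676871-125677120 on the minus strand, and that of *Pdss1* is chr2:22750792-22751041 on the plus strand, where it overlaps an exon of the pseudogene *A130006I12Rik*. The window of *Coq10a* is chr10:127807089-127807338 on the minus strand, and that of *Coq4* is chr2:29642763-29643012 on the plus strand. The full motif TCAAGGTCA was found on either strand in 0 of the 10 members' windows, and in 0.315% of the 10490 tested genes with a single annotated location. AAGGTCA was found in 2 of 10, *Pdss1* and *Coq10a*, against 3.07% of all windows. The half-site AGGTCA, added after the sequences had been seen and contained in AAGGTCA, was found in 4 of 10 (*Coq7*, *Coq4*, *Pdss1* and *Coq10a*) against 11.1% of all. In *Coq7* it lies on the opposite strand, 182 to 187 bases upstream of the start, and in *Coq4* also on the opposite strand, 47 to 52 bases upstream. The 4 genes with the half-site include members lower and members higher in ESRRAKO, and a match of these letters does not show a bound site.

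All 10 genes passed the filter of a mean above 1 FPKM and were tested among 10596 genes with limma, which fits a linear model to each gene and moderates its variance with that of the others, using log2(FPKM + 0.1). To be called, a gene needed both a log2 fold change, ESRRAKO over WT, of more than 0.58 in size and an unadjusted p below 0.05. Of the 10, 1 was called lower, where 3.28% of all genes tested were, and 0 were called higher, where 1.35% were (4.63% in either direction). Without the fold threshold, 4 had a p below 0.05 and a lower level, against 6.49% of all genes, and 0 a higher one, against 4.3% (10.8% in either direction). WT and ESRRAKO ranges were fully apart for 4 genes that were lower, against 9.14% of all genes, and for 1 that was higher, against 8.45% (17.6% in either direction). The log2 fold change was negative for 5 of the 10 and for 45.7% of all genes tested. After Benjamini-Hochberg adjustment over all genes tested, 0 of the 10 had an adjusted p under 0.05 from limma, and 0.0378% of all genes had one. The median log2 fold change of the 10 genes was −0.11, beside 0.03 over all genes tested, and with each library scaled to the same total FPKM it was 0.0046 beside 0.14. Of all genes called, 70.9% were lower, and 33.3% with that scaling, under which the log2 fold change of *Coq7* was −1.04.

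**Figure D1:**
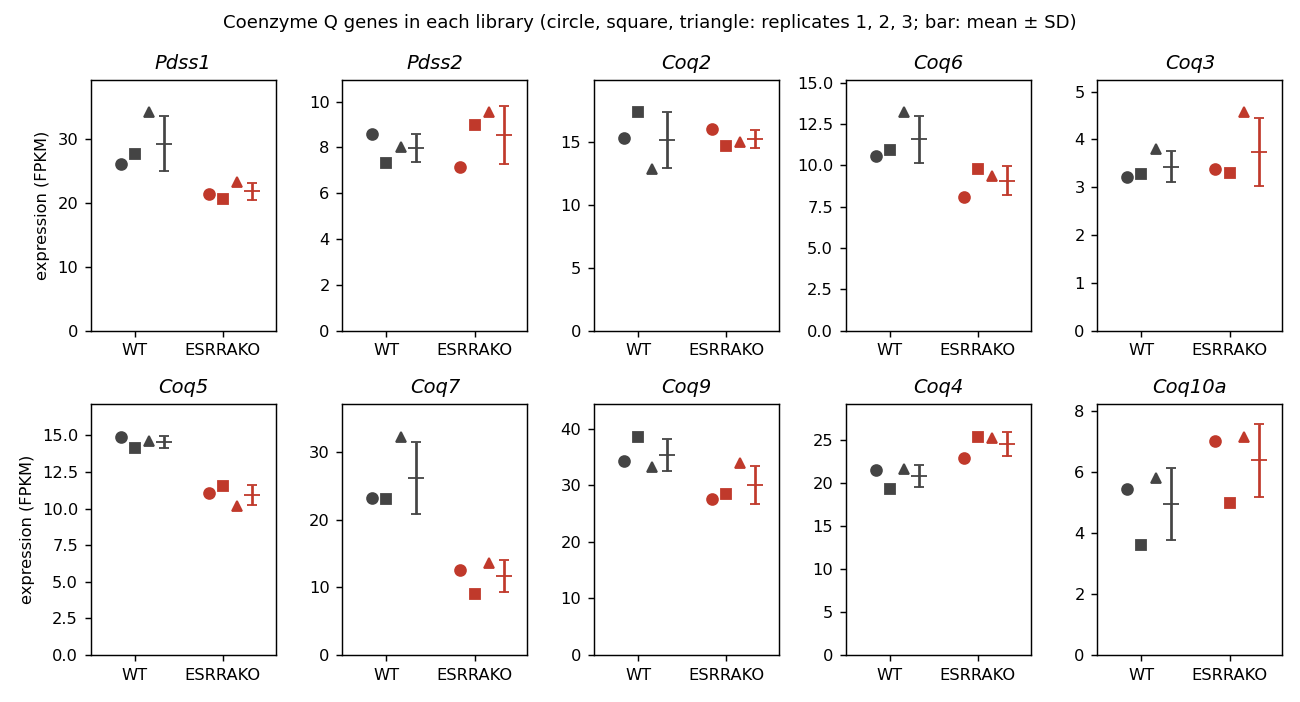
Expression in FPKM of each of the 10 genes in the 3 WT libraries (grey) and the 3 ESRRAKO libraries (red), each panel on its own axis from 0, with symbols for replicates 1 to 3 and the mean ± SD beside them. The genotypes are fully separated for *Pdss1*, *Coq6*, *Coq5* and *Coq7*, with ESRRAKO lower, and for *Coq4*, with ESRRAKO higher.

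The tail is made by a polyprenyl diphosphate synthase whose subunits are encoded by *Pdss1* and *Pdss2*. *Pdss1* (chr2:22751042-22795786) had 26.0, 27.7 and 34.1 FPKM in WT and 21.5, 20.7 and 23.3 FPKM in ESRRAKO. Every ESRRAKO value lay below every WT value, and WT replicate 3 was the highest. The log2 fold change was −0.42 (standard error 0.14, 95% confidence interval −0.75 to −0.08), short of the threshold, with a limma adjusted p of 0.387. Its unadjusted p of 0.0208 became 0.0538 to 0.0625 without WT replicate 3, ESRRAKO replicate 1 or ESRRAKO replicate 2, and 0.0552 with the same total for each library. *Pdss2* (chr10:42941292-43184688) had 8.57, 7.32 and 8.01 FPKM in WT and 7.13, 8.97 and 9.53 FPKM in ESRRAKO. The genotypes overlapped for the second subunit, and its log2 fold change of 0.09 had an interval from −0.25 to 0.44. It was 0.0083 without ESRRAKO replicate 3, 0.03 without WT replicate 2, 0.05 without ESRRAKO replicate 2, 0.14 without WT replicate 1 and 0.21 without ESRRAKO replicate 1. The FPKM of *Pdss1* was 3.69 ± 0.617 times that of *Pdss2* in WT and 2.59 ± 0.373 times in ESRRAKO (SD, n = 3 each, two-sided exact permutation test on the log2 ratio, p = 0.1, the smallest that 3 libraries against 3 allow).

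*Coq2* (chr5:101083742-101104159) encodes the prenyltransferase that joins the tail to the ring precursor, para-hydroxybenzoate. It had 15.3, 17.4 and 12.9 FPKM in WT and 16.1, 14.7 and 15.0 FPKM in ESRRAKO. Both the highest and the lowest value were WT, so the ESRRAKO values lay inside the WT range. Its log2 fold change was 0.02, with an interval from −0.31 to 0.35, and its sign changed under several settings.

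The ring is then hydroxylated and methylated by enzymes that assemble into a complex on the inner membrane. *Coq6* (chr12:85702607-85714746), a flavin-dependent monooxygenase, had 10.6, 10.9 and 13.2 FPKM in WT and 8.08, 9.78 and 9.34 FPKM in ESRRAKO. The genotypes did not overlap, but the gap between them was smaller than the SD of WT. ESRRAKO over WT, the difference was −0.34 on the log2 scale (interval −0.67 to −0.02, limma adjusted p = 0.442), and the unadjusted p of 0.0412 was above 0.05 without WT replicate 2, WT replicate 3, ESRRAKO replicate 1 or ESRRAKO replicate 3, where it lay between 0.0606 and 0.145. It was also above 0.05 without both replicates 3 (0.118), without a mean-variance trend (0.0566) and with the same total for each library (0.236), 7 of the 16 alternatives in all.

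*Coq5* (chr5:115729675-115746981), the C-methyltransferase, had the smallest standard error of the 10. It had 14.9, 14.1 and 14.6 FPKM in WT and 11.1, 11.6 and 10.2 FPKM in ESRRAKO, so that the groups were separated by more than the range of either. Its log2 fold change was −0.41 (standard error 0.11, interval −0.67 to −0.15), with a limma adjusted p of 0.31. The unadjusted p of 0.00688 stayed below 0.05 in 15 of the 16 alternatives, and was 0.188 with the same total for each library. There the log2 fold change was −0.29 with a standard error of 0.21. Relative to the median of all genes tested it was −0.44 in both scalings. *Coq3* (chr4:21806820-21839309), the O-methyltransferase that also carries out the last step, had the lowest mean of the 10 in both genotypes. Its values were 3.21, 3.28 and 3.81 FPKM in WT and 3.37, 3.3 and 4.56 FPKM in ESRRAKO, with replicate 3 the highest in both genotypes. A log2 fold change of 0.11 was estimated, with an interval from −0.30 to 0.52. It was −0.036 without ESRRAKO replicate 3 and 0.19 without ESRRAKO replicate 2.

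*Coq7* (chr7:125653173-125676870, minus strand) encodes the di-iron hydroxylase that acts on demethoxyubiquinone, the step before the final methylation. It had 23.2, 23.1 and 32.3 FPKM in WT and 12.6, 9.0 and 13.6 FPKM in ESRRAKO. The lowest WT value was above the highest ESRRAKO value by more than the range of either group, and WT replicate 3 was the highest of all. The mean fell from 26.2 ± 5.29 FPKM to 11.7 ± 2.40 FPKM (SD, n = 3 libraries each). The log2 fold change was −1.16 (standard error 0.21, 95% confidence interval −1.64 to −0.68), and 0.831% of the genes tested had a lower one. The adjusted p from limma was 0.165 over all genes tested, and it ranged from 0.0461, with the presence of Y-linked transcripts as a covariate, to 0.569, without ESRRAKO replicate 1. The call itself was made in all 16 alternatives, with a log2 fold change between −1.27 and −0.98, and the two-sided exact permutation test gave its smallest possible p, 0.1.

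*Coq9* (chr8:97362221-97378795) encodes a lipid-binding protein on which COQ7 depends. It had the highest mean of the 10 in both genotypes, with 34.3, 38.6 and 33.2 FPKM in WT and 27.6, 28.5 and 33.9 FPKM in ESRRAKO. ESRRAKO replicate 3 lay above WT replicate 3, so the genotypes overlapped. On the log2 scale the fold change was −0.24, with an interval from −0.56 to 0.08 (limma adjusted p = 0.567). Without ESRRAKO replicate 3 it was −0.33, with an unadjusted p of 0.0489, and with the same total for each library −0.12. The ratio of *Coq7* to *Coq9* within a library was 0.676, 0.597 and 0.973 in WT and 0.454, 0.315 and 0.400 in ESRRAKO. This ratio, which does not depend on how a library is scaled, was lower in every ESRRAKO library than in every WT library (two-sided exact permutation test on the log2 ratio, p = 0.1, the smallest possible). As *Coq7* was the one member called, the lower ratio follows largely from its own fall and is given as a description.

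*Coq4* (chr2:29643013-29653455), whose product is needed to hold the synthesis complex together, was the one member whose values were separated with ESRRAKO above WT. It had 21.5, 19.3 and 21.7 FPKM in WT and 22.9, 25.4 and 25.3 FPKM in ESRRAKO, a log2 fold change of 0.24 (interval −0.04 to 0.51, limma adjusted p = 0.527) that did not pass the test. The unadjusted p of 0.0825 was 0.0499 with the presence of Y-linked transcripts as a covariate. Of the exon bases of *Coq4*, 27.1% are also exon of *Trub2* on the opposite strand, and the labels name a library kit that does not mark strand, so that reads from these bases cannot be told apart and the value of *Coq4* is uncertain. *Trub2* had a log2 fold change of 0.25 (standard error 0.27). Smaller shares of exon bases are also exon on the opposite strand in *Pdss1* (4.87% with *A130006I12Rik* and 4.57% with *Abi1*), *Coq6* (4.07% with *Fam161b*) and *Coq9* (1.24% with *Ciapin1*), and the same limit holds for these. *Coq10a* (chr10:127800153-127807088) encodes a protein that binds finished ubiquinone and supports its use in respiration. It had 5.44, 3.62 and 5.81 FPKM in WT and 7.01, 5.00 and 7.17 FPKM in ESRRAKO, in each genotype lowest in replicate 2. Its log2 fold change of 0.37 had the widest interval of the 10, from −0.16 to 0.90, and was 0.17 without WT replicate 2.

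**Figure D2:**
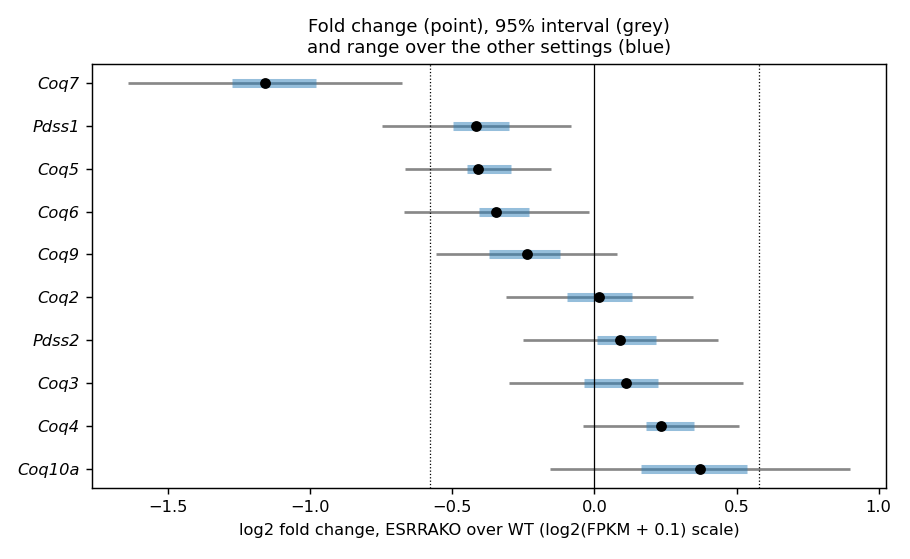
Log2 fold change of each gene, ESRRAKO over WT, on the log2(FPKM + 0.1) scale (black points), with its 95% confidence interval from limma (grey lines) and the range over the 16 alternative settings (blue bars). Dotted lines mark the threshold of 0.58, which only the point of *Coq7*, at −1.16, lies beyond.

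The order of the levels in WT, by mean FPKM, was *Coq9*, *Pdss1*, *Coq7*, *Coq4*, *Coq2*, *Coq5*, *Coq6*, *Pdss2*, *Coq10a* and *Coq3*, from 35.4 to 3.43 FPKM. The WT ranges of *Coq9* and *Pdss1*, of *Pdss1* and *Coq7*, of *Coq2* and *Coq5*, and of *Coq10a* and *Coq3* overlapped, so these neighbours did not differ beyond their spread, although *Coq7* was below *Pdss1*, and *Coq3* below *Coq10a*, within each of the 6 libraries. By mean in ESRRAKO, *Coq7* moved from rank 3 to rank 5 and *Coq4* from rank 4 to rank 2, while the ranks of the 5 least expressed genes stayed as they were. The ESRRAKO ranges of *Coq7* (9.0 to 13.6 FPKM) and *Coq5* (10.2 to 11.6 FPKM) overlapped. So did those of *Coq4* (22.9 to 25.4 FPKM) and *Pdss1* (20.7 to 23.3 FPKM), of *Coq6* and *Pdss2*, and of *Pdss2* and *Coq10a*. These neighbours did not differ beyond their spread, although *Coq4* was above *Pdss1* within each ESRRAKO library. The 10 genes summed to 163, 165 and 180 FPKM in WT and 137, 137 and 152 FPKM in ESRRAKO. *Coq7* made up 15.4 ± 2.25% of this sum in WT and 8.22 ± 1.43% in ESRRAKO (SD, n = 3 each, two-sided exact permutation test on the log2 share, p = 0.1, the smallest possible). *Coq7* was the one member called, so the lower share follows largely from its own fall. It is given as a description and adds no separate support. Without *Coq7* the sums were 140, 142 and 147 FPKM in WT and 125, 128 and 138 FPKM in ESRRAKO, so that the lowest WT and the highest ESRRAKO sum lay close together.

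**Figure D3:**
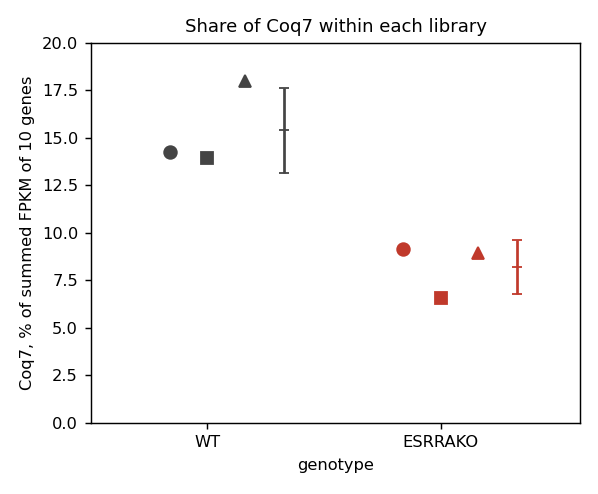
*Coq7* as a percentage of the summed FPKM of the 10 coenzyme Q genes in each library (circle, square and triangle for replicates 1 to 3), with mean ± SD per genotype. The WT shares run from 13.9% to 18.0% and the ESRRAKO shares from 6.57% to 9.14%.

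The genes differed in how they varied within a genotype. On the log2 scale *Coq7* deviated from its own mean by 0.42, 0.41 and 0.90 in the WT libraries and by −0.46, −0.93 and −0.35 in the ESRRAKO libraries. The median deviation of the 10 genes was 0.05, 0.12 and 0.08 in WT and −0.19, −0.12 and 0.02 in ESRRAKO, so that ESRRAKO replicate 3 was close to WT replicate 1. Within the 4 libraries with Y-linked transcripts, the log2 fold change of *Coq7* was −1.11, and between the pair of libraries without them it was −1.25. The same values were −0.36 and −0.52 for *Coq5*, −0.35 and −0.55 for *Pdss1*, −0.27 and −0.49 for *Coq6*, and 0.24 and 0.22 for *Coq4*, each with the same sign in both. *Pdss2*, *Coq3* and *Coq10a* were positive in both, while the signs differed for *Coq2* (−0.09 and 0.22) and *Coq9* (−0.37 and 0.03).

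**Figure D4:**
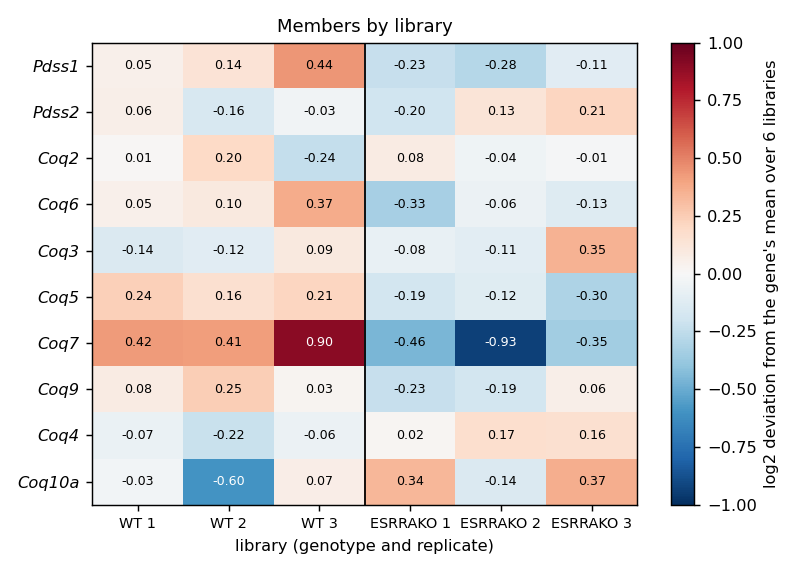
Log2 deviation of each gene (rows) from its own mean over the 6 libraries (columns, WT left of the line and ESRRAKO right), red for higher and blue for lower, on log2(FPKM + 0.1). The row of *Coq7* spans the widest range, from 0.90 in WT replicate 3 to −0.93 in ESRRAKO replicate 2, and the rows of *Pdss1*, *Coq6* and *Coq5* change sign in the same way at the line between the genotypes.

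The genes with the profile most like the median profile of the 10, by root mean square distance of the centred log2 values over the 6 libraries, were *Rbm10* (0.033), *Gins4* (0.034), *Nup88* (0.034), *Hpse* (0.036) and *Cr1l* (0.039). Their log2 fold changes lay between −0.23 and −0.16 and none of the 5 was called, where 4.63% of all genes tested were. These values follow from choosing genes by their likeness to the median profile and are given as a description.

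The wider pathway was described by 4 lists. Of 16 other genes linked to coenzyme Q synthesis, redox state or transport, all tested, 2 were called lower and 0 higher (3.28% and 1.35% of all genes tested), with a median log2 fold change of −0.18 beside 0.03 over all genes. *Rtn4ip1*, a mitochondrial oxidoreductase linked to coenzyme Q synthesis, had 7.11, 8.52 and 7.94 FPKM in WT and 4.70, 5.39 and 5.4 FPKM in ESRRAKO, and fell by 0.60 on the log2 scale (standard error 0.13, limma adjusted p = 0.241). *Fdx1*, a mitochondrial ferredoxin named here because it was the other gene called, fell by 0.59, although its genotypes overlapped. *Stard7*, a lipid transfer protein, had a log2 fold change of −0.53 with separated groups and did not reach the fold threshold. *Adck5*, a member of the same kinase-like family as COQ8, had one of 0.46, with separated groups. *Adck1* and *Adck2*, also of this family, had log2 fold changes of −0.52, with separated groups, and −0.14. The kinase-like regulators themselves, *Adck3* (COQ8A) and *Adck4* (COQ8B), had log2 fold changes of −0.01 and 0.26, with standard errors of 0.32 and 0.31, and *Coq10b*, the relative of *Coq10a*, had −0.06 (standard error 0.37). The count of 2 became 0 without ESRRAKO replicate 1, with a pseudocount of 1 or with the same total for each library, and 1 without WT replicate 2, WT replicate 3 or ESRRAKO replicate 2.

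The mevalonate pathway supplies the isoprenoid units of the tail. Of its 9 listed genes 8 were found and tested, and 0 were called, where 4.63% of all genes tested were called in either direction, with a median log2 fold change of 0.02. The unadjusted limma p was under 0.05 for 0 of them and for 10.8% of all genes, so that counts of 0 among 8 are near the background. *Ggps1*, which makes the C20 isoprenoid geranylgeranyl diphosphate, had a log2 fold change of 0.21, *Pmvk*, phosphomevalonate kinase, had 0.32, and *Acat2*, an acetoacetyl-CoA thiolase, had −0.20.

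On the side of use, 13 genes for complex II and for other enzymes that pass electrons to ubiquinone were tested. They include *Etfa* and *Etfb*, whose product passes electrons to the enzyme encoded by *Etfdh* and not to ubiquinone itself. The median log2 fold change was −0.08. Of the 13, 3 were called lower and 0 higher (3.28% and 1.35% of all genes tested). The 3 called were the complex II subunits *Sdha*, with 151, 143 and 167 FPKM in WT and 88.8, 95 and 111 FPKM in ESRRAKO, *Sdhb* and *Sdhd*, with log2 fold changes of −0.65, −0.64 and −0.68. The ubiquinone oxidoreductase of fatty acid and amino acid oxidation, *Etfdh*, had −0.08 (interval −0.41 to 0.26), and the mitochondrial glycerol phosphate dehydrogenase *Gpd2* had 0.05 (interval −0.48 to 0.58). *Prodh2*, a proline and hydroxyproline dehydrogenase family member named after its values were seen, had the lowest log2 fold change of the list, −1.57, but its genotypes overlapped and its interval, −3.16 to 0.01, was wide. The 3 calls were lost without ESRRAKO replicate 1 and with the same total for each library.

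Complex III oxidizes the reduced form, ubiquinol. Each of its 9 nuclear genes tested had a fold change below 0 on the log2 scale, as did 45.7% of all genes tested, and the median was −0.59. Of the 9, 5 were called lower and 0 higher (3.28% and 1.35% of all genes tested). *Uqcrfs1*, the Rieske iron-sulfur protein, had 177, 165 and 238 FPKM in WT and 104, 86.1 and 126 FPKM in ESRRAKO (log2 fold change −0.87, standard error 0.21), and *Uqcr10* and *Uqcrb*, small subunits, had log2 fold changes of −0.91 and −0.69. The log2 fold change of *Coq7* was below those of all 9. The count of 5 became 2 without WT replicate 3 or ESRRAKO replicate 1, 3 without ESRRAKO replicate 2 or with quantile normalization, and 2 with the same total for each library.

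**Figure D5:**
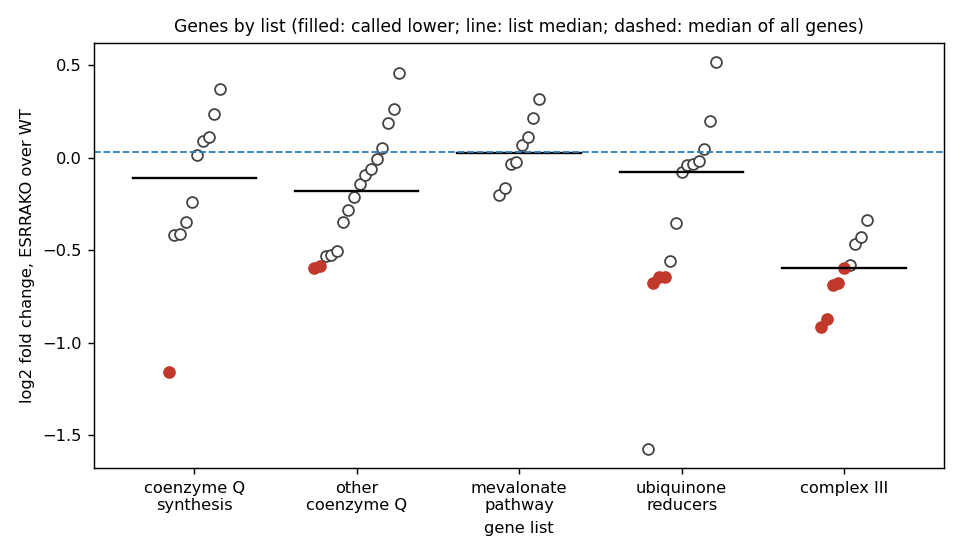
Log2 fold change, ESRRAKO over WT, of each tested gene in the 5 lists, with genes called lower filled in red (the open point near −1.57 is *Prodh2*, which was not called), the list median as a black line and the median of all genes tested, 0.03, as a dashed line. *Coq7*, at −1.16, is the one filled point of the synthesis list, while complex III has a median of −0.59 and 5 filled points.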

How the data were processed

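Total RNA of duodenal epithelium (3 WT, 3 ESRRAKO) was sequenced. The study describes the 3 libraries per genotype as biological replicates. Per the study's methods and processing notes, the authors checked reads with FastQC (0.11.3), quantified them with Kallisto (given as 2.1.0) against mm9 and used DESeq2 (given as 2.2.1) to calculate the deposited FPKM. The annotation and strand setting are not given in the sources used here. A second table holds the authors' own comparison (mean counts, fold changes and p-values) and was not used.

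Here log2(FPKM + 0.1) of the 10596 genes with a mean FPKM above 1 was tested with limma (3.58.1, R 4.3.3; lmFit, eBayes with a mean-variance trend, no covariate, two-sided), after checks on simulated data. P-values were adjusted by Benjamini-Hochberg over all genes tested. The threshold for a call (unadjusted p under 0.05, log2 fold change beyond 0.58) and the FPKM filter follow the study. FPKM values do not give the depth of a library, so precision is given by the spread between libraries. Fold changes on this scale understate the change of low genes. Total FPKM per library differed by up to 1.41 times, so scaling to the same total was added as an alternative after the data were seen, as was leaving out both libraries without Y-linked transcripts. No 2 libraries held the same values (0.0283% to 0.113% of tested genes had exactly the same deposited FPKM in any pair). This shows that no column was repeated, and cannot tell whether 2 libraries came from the same animal.

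Members and lists were chosen with earlier results of these data known. Named were all members, *Esrra*, 3 genes per list, by lowest p, the 5 genes nearest the members' median profile and the Y-linked genes. *Fdx1*, *Etfdh*, *Etfa*, *Etfb*, *Gpd2*, *Prodh2*, *Adck1*, *Adck2*, *Adck3*, *Adck4*, *Coq10b*, *Trub2*, *Lyz1*, *Defa24* and the genes under other observations were chosen after their values were seen. Lists of markers for goblet, enteroendocrine, tuft and immune cells, with 4, 5, 2 and 4 genes tested, held 1 called gene, *Spink4*, which was lower. Of all genes tested, 4.63% were called in either direction. Promoter windows were read from mm9 (NCBIM37) with GENCODE M1 (Python 3.11.15), the build the study names.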

Additional observations from a re-analysis of the deposited data

Results flagged for a closer look

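*Coq9* is given here because its fold change had a different sign in the libraries with and without Y-linked transcripts, which does not show a reversal, since the libraries without them are 1 per genotype. In the 4 libraries with them, both ESRRAKO values lay below both WT values, with a log2 fold change of −0.37. In the pair of libraries without them it was 0.03 (33.2 FPKM in WT and 33.9 FPKM in ESRRAKO). The difference between the fold changes was 0.40 on the log2 scale, with an adjusted p of 0.916 from limma over all genes tested. The spread in that fit comes from the other 4 libraries alone and *Coq9* was picked for its signs, so the p supports no reading either way. The fold changes of *Coq2* also had opposite signs, −0.09 and 0.22, a difference of 0.31, but its WT and ESRRAKO values overlapped in the 4 libraries with Y-linked transcripts.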

How the results depend on the processing

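Under all 16 alternatives of scaling, filter, model and samples *Coq7* was called lower, and no member was called higher. Without the fold threshold 4 members were lower (6.49% of all genes tested), and with an adjusted p in place of both thresholds 0 were. *Coq2* changed sign with quantile normalization (−0.028), without WT replicate 3 or ESRRAKO replicate 1 (−0.10 to 0.12 with each library left out) and without both replicates 3 (−0.086), and *Coq3* without ESRRAKO replicate 3 (−0.036 to 0.19 with each library left out). The median of the members was −0.16 with quantile normalization, −0.18 without both replicates 3, −0.18 to −0.070 with each library left out, and 0.0046 with the same total for each library, which moved the median of all genes by over 0.1. Relative to that median *Coq7* stood at −1.19 in both scalings.

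Without the fold threshold, 5 other coenzyme Q genes were lower and 1 higher (6.49% and 4.3% of all genes tested). Their lower count was 0 with a pseudocount of 1, 1 without a trend, 0 with the same total, 0 with an adjusted p, and 0 to 3 with each library left out. The ubiquinone-reducing enzymes had 0 with the same total, 0 with an adjusted p and 0 to 4 with each library left out. Complex III had 3 with quantile normalization, 2 with the same total, 0 with an adjusted p and 2 to 7 with each library left out.

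Over all genes, 348 were called lower and 143 higher. These were 528 and 277 with no filter, 134 and 269 with the same total (33.3% lower against 70.9%), 688 and 456 without the fold threshold, 2 and 2 with an adjusted p, and 252 to 533 and 143 to 214 with each library left out. The cause of these changes was not tested.

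The replicate numbers do not pair the libraries by any label. Deviations of same-numbered libraries had correlations of 0.012, 0.263 and 0.376, and 4 of 6 libraries correlated best with their own number. With the replicate number as a block, 1 member was called lower and 441 of all genes tested were, and no call of a member changed. The unadjusted p of *Coq10a* was 0.0138 in this block fit, at an unchanged log2 fold change of 0.37. FPKM does not give the number of fragments behind a value, and the authors' table with mean counts was not used. The counting error of genes near 3 FPKM, such as *Coq3*, was therefore not estimated.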

Other observations

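The genes whose centred log2 profile over the 6 libraries was nearest to that of *Coq7* were looked up after its values had been seen. They were *Ndufc1*, *Ndufb10* and *Ndufc2*, subunits of complex I, *Cycs*, which encodes cytochrome c, and *Gm10108*, at root mean square distances of 0.11, 0.12, 0.14, 0.14 and 0.15 on the log2 scale, in the order *Ndufc1*, *Ndufb10*, *Cycs*, *Ndufc2* and *Gm10108*. Their log2 fold changes were −1.04, −0.98, −1.04, −0.99 and −1.01 in that order, values that follow from choosing genes by their likeness to *Coq7* and are given as a description.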
